A study of Mus musculus with 2 samples.

Results

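Cluster 9 of the mouse cornea was a small epithelial population marked by *Wfdc18*, *Dlk2*, *Sox4*, *Wnt10a* and *Gpha2*. Its members were the cells that carry cluster number 9 in the deposited table of cells, 1477 of 28867 cells. Of these, 521 came from the unwounded library (abbreviated as "UW") and 956 from the wounded library ("W"). RNA was measured by droplet sequencing, in which every captured molecule of a cell carries its own tag, the unique molecular identifier (UMI). Both libraries came from male mice aged 6 to 8 weeks, whose strain is not given in the sources used here. UW pooled the corneas of 4 normal mice, and W those of 4 mice taken 24 h after the central epithelium inside a 2.5 mm trephine mark had been scraped off. The tissue was loosened with dispase II before digestion with trypsin and collagenase A.

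The corneal epithelium is renewed from stem cells at the limbus, the rim where the clear cornea meets the conjunctiva. In mice, an outer limbal zone of slowly cycling cells, for which the secreted hormone subunit *Gpha2* is a known marker, is distinguished from an inner zone of cells that cycle more often and feed the central cornea. *Krt12* is the keratin of corneal differentiation, whereas *Krt4*, *Krt13* and *Krt19* are keratins of the neighbouring conjunctiva. Interferon switches on antigen presentation and antiviral genes in most cell types, epithelia included.

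For each gene, UMIs were added up over all cells of a cluster and library and expressed as counts per 1000000 UMIs (CPM). With 1 library per condition no test could be made, differences have no check by replicates, and the wound cannot be told apart from any other difference between the libraries. The study also assigned cells to single mice, but the table of cells names only the library, and values per mouse were not analysed here. Intervals in parentheses are 95% intervals for counting error only (exact Poisson for CPM, exact Clopper-Pearson for shares of cells), and a log2 ratio sets CPM in W over CPM in UW. A ratio "past 2-fold" is a statement of size. The cluster 9 sums held 7615535 UMIs in UW and 24893580 in W, with medians of 13944 and 24009 UMIs per cell, so levels were measured more closely in W. Shares of cells with a UMI were therefore computed after each cell was thinned to 5000 UMIs, which kept 505 UW and 950 W cells. The libraries had 52 cell barcodes in common, none of them in cluster 9 of both.

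Cluster 9 made up 3.86% (3.54 to 4.20) of the 13501 epithelial cells of UW and 11.2% (10.6 to 11.9) of the 8507 epithelial cells of W. Without cells with a UMI of the immune genes *Ptprc*, *Tyrobp*, *S100a8* or *S100a9* the W share was 18.0%. That filter left out 784 of the 956 W cells of cluster 9, so 18.0% is not a cleaned share. In W, without thinning, *S100a8* was found in 52.9% of cluster 9 cells, 53.0% of cluster 3 and 38.0% of stromal cluster 0. Without only the cells with a UMI of *Ptprc* or *Tyrobp* the share was 11.5%. The number of cells recovered from each library and the genes that define the cluster both differ between the libraries, so these shares are a description. They cannot tell more cells of this kind from fewer cells of other kinds.

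All 5 markers were higher in cluster 9 than in the summed other epithelial clusters of the same library, a description of the cluster since these genes took part in the clustering. *Gpha2* (chr19:6226380-6227768, plus strand, GRCm38), an alpha subunit of the glycoprotein hormone thyrostimulin, stood at 1946 CPM (1914 to 1977) in UW and 1412 (1397 to 1426) in W. That was 6.05 log2 units above the other epithelium in UW and 3.17 above it in W. *Sox4* (chr13:28948919-28953713, minus strand), a transcription factor of progenitor cells, was at 193 CPM (183 to 203) in UW and 243 (236 to 249) in W. *Wnt10a* (chr1:74791516-74804179, plus strand), a secreted Wnt ligand, was at 126 CPM (118 to 134) and 145 (140 to 149), and *Dlk2* (chr17:46297421-46303271, plus strand), a membrane relative of the Notch ligands, at 61.3 CPM (55.9 to 67.1) and 90.7 (87.0 to 94.6). The log2 ratio of W over UW was small for these 4 genes, at -0.46 for *Gpha2*, 0.33 for *Sox4*, 0.20 for *Wnt10a* and 0.57 for *Dlk2*.

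*Wfdc18* (chr11:83709015-83711348, plus strand), a small secreted protein with a whey acidic protein domain, was the marker with the largest difference between the libraries. Its 435 UMIs in UW gave 57.1 CPM (51.9 to 62.7), and its 14443 UMIs in W gave 580 CPM (571 to 590), a log2 ratio of 3.34 (3.21 to 3.49). Cluster 5, a conjunctival-like cluster with high *Krt13* and *Krt19*, came next and moved the same way, from 11.8 CPM in UW to 199 in W. Cluster 3, an epithelial cluster with high *Krt12*, held 0.0915 CPM of *Wfdc18* in UW and 6.51 in W, and stromal cluster 0 held 0.0703 and 9.37. *Wfdc18* thus stood above its UW level in cells of every one of these kinds, and the part of RNA released into the droplets was not tested.

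**Figure D1:**
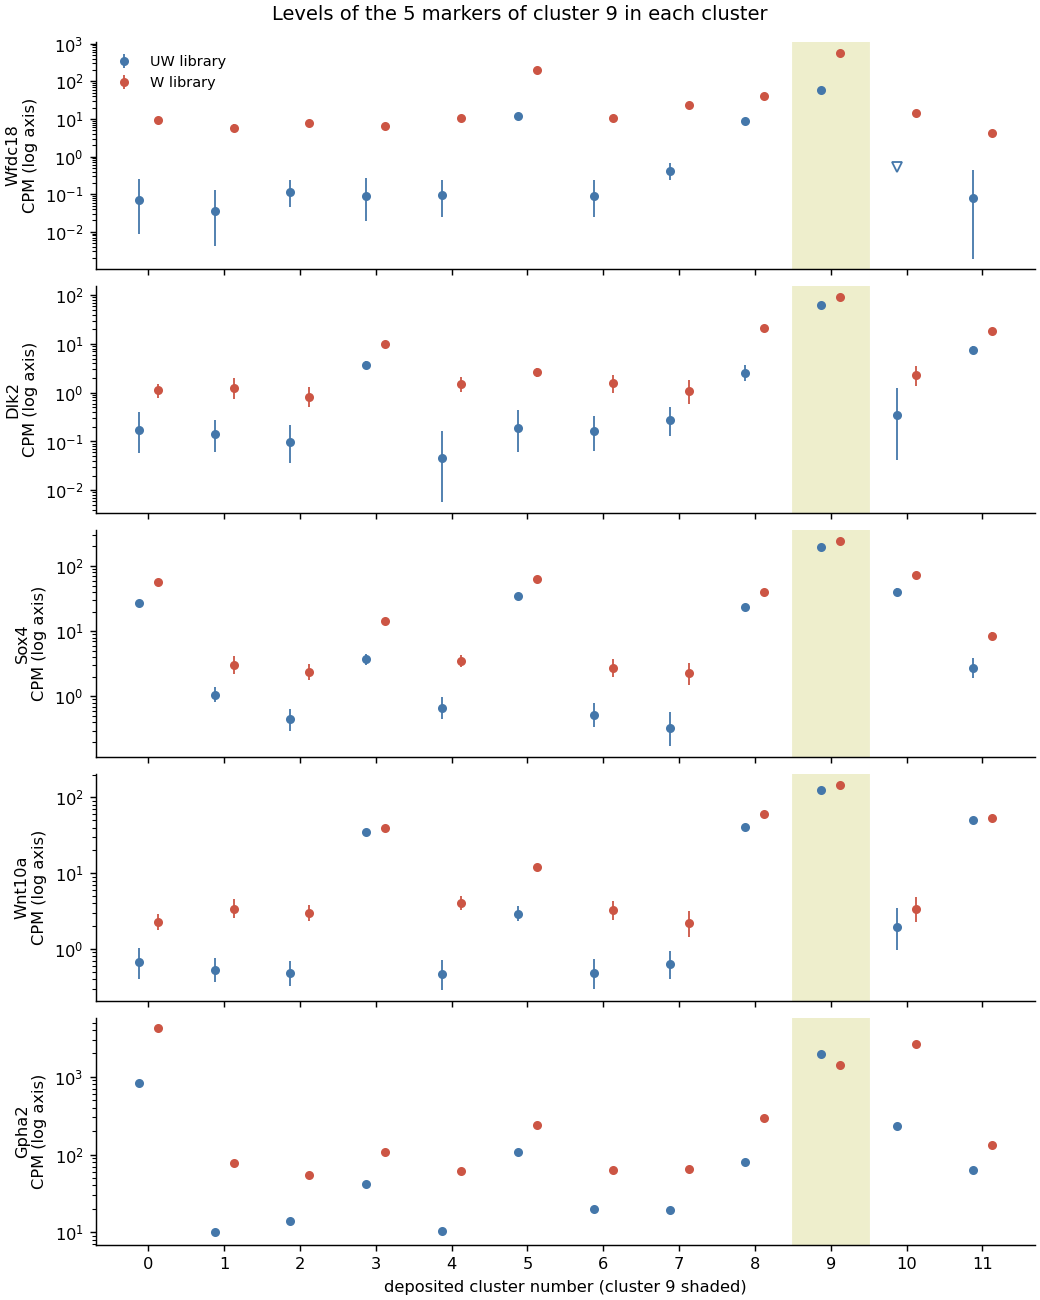
Level of the 5 markers (CPM, log axis) in the 12 clusters, numbered 0 to 11, with at least 50 cells in both UW and W, with exact Poisson 95% intervals; an open triangle is a sum of 0 drawn at its limit of 3 counts. Cluster 9 was the highest of these in both libraries for 4 of the markers, and for *Gpha2* it was the highest in UW and lay below clusters 0 and 10 in W.

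Ranked over the 12 clusters of UW with at least 50 cells, cluster 9 came first for all 5 markers, and over the 16 such clusters of W it came first for 4. Its lead over the next cluster in UW was 8.05-fold for *Dlk2*, 4.84-fold for *Wfdc18*, 4.83-fold for *Sox4*, 2.52-fold for *Wnt10a* and 2.37-fold for *Gpha2*. In W the lead was 4.30-fold for *Dlk2*, 3.31-fold for *Sox4*, 2.92-fold for *Wfdc18* and 2.42-fold for *Wnt10a*. *Gpha2* was the exception, with 4206 CPM in stromal cluster 0 of W and 2611 in cluster 10, against 1412 in cluster 9.

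*Gpha2* was also the one marker found in nearly all cells. After thinning, 92.7% (90.0 to 94.8) of UW cells and 93.5% (91.7 to 94.96) of W cells had a *Gpha2* UMI. Stromal cluster 0, with median depths of 11853 UMIs in UW and 17588 in W, had one in 61.0% and 86.2% of its cells, so a *Gpha2* UMI alone did not set cluster 9 apart in this dissociation. *Dlk2* did so better, with a UMI in 24.8% and 36.7% of cluster 9 cells against 0.129% and 0.878% of cluster 0. *Sox4* was found in 43.2% and 57.8%, *Wnt10a* in 43.6% and 49.4%. *Wfdc18* was found in 7.13% (5.04 to 9.73) of UW cells and 36.4% (33.4 to 39.6) of W cells, against 3.94% and 26.9% of cluster 5. In cluster 8 of W the share was 6.78%, in cluster 3 it was 3.35% and in stromal cluster 0 it was 4.16%, with 0 of the 2318 thinned cells of cluster 0 in UW, whose interval reaches 0.159%. Without thinning the *Wfdc18* shares were 10.2% and 53.5%.

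The markers did not mark the same cells evenly. In UW, the 10% of cells with most *Wfdc18* held 100% of its UMIs, 1 cell alone having 107, and in W the top 10% held 67.2%, with a highest count of 354. For *Gpha2* the top 10% held 28.4% in UW and 29.8% in W. *Wfdc18* was therefore concentrated in a minority of cells of a population in which *Gpha2* was widespread. Cells with a *Wfdc18* UMI had a *Sox4* UMI in 75.0% (57.8 to 87.9) of 36 cells in UW and 74.6% (69.6 to 79.1) of 346 cells in W, against 40.7% and 48.2% of the cells without. *Gpha2* was found in 94.4% (81.3 to 99.3) of these UW cells and 96.2% (93.7 to 97.98) of these W cells, against 92.5% and 91.9% of the cells without *Wfdc18*. Across the 5 markers, at least 2 were found in 70.1% of UW cells and 83.3% of W cells, and none in 16 of 505 and 24 of 950.

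**Figure D2:**
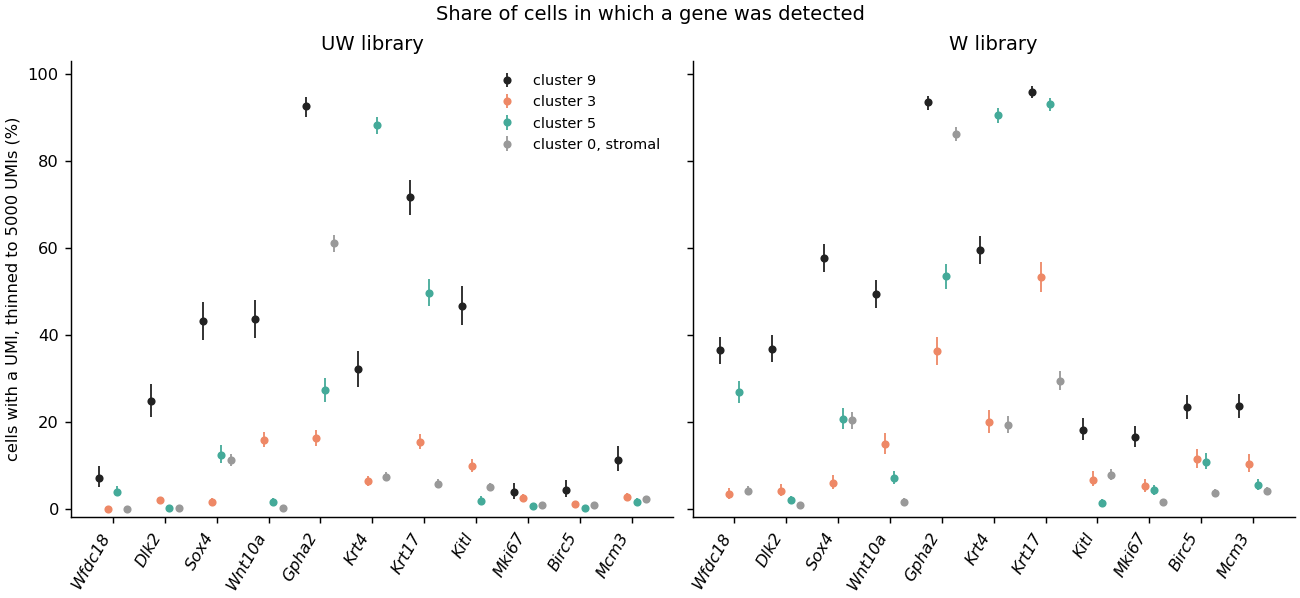
Share of cells with at least 1 UMI (percent, cells thinned to 5000 UMIs) for the 5 markers, *Krt4*, *Krt17*, *Kitl* and 3 cell cycle genes (*Mki67*, *Birc5*, *Mcm3*) in clusters 9, 3, 5 and 0 of UW and W, with exact 95% intervals. *Gpha2* stayed near 93% of cluster 9 cells in both libraries, whereas *Wfdc18* went from 7.13% to 36.4%.

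The name "quiescent-like" was checked against the marker lists. *Ifitm3*, an interferon-induced membrane protein used as a marker of quiescent limbal cells, had 981 CPM in UW where cluster 3 had 53.5, and 2215 in W where cluster 3 had 2482, so it separated these clusters in UW and not in W. *Cd63*, a tetraspanin, was at 174 and 179 CPM against 12.6 and 47.3. *Krt15* was at 3740 and 5959 CPM, far below the 23158 and 21102 of cluster 5. Together with *Gpha2*, these 4 quiescent markers summed to 6841 CPM in UW and 9764 in W. The sums were 497 and 3519 in cluster 3, and 23388 and 22500 in cluster 5, most of it *Krt15*. Stromal cluster 0 held 4379 and 13729. The basal keratin *Krt14* was at 6197 CPM in UW, 4.02 log2 units above the other epithelium, and at 11770 in W, only 0.08 above it. *Krt12* was low for corneal epithelium, with 5086 CPM in UW and 1368 in W where cluster 3 had 29083 and 11905. *Krt19* at 9.72 and 49.3 CPM and *Krt13* at 137 and 294 CPM were likewise far below cluster 5, where *Krt19* stood at 1489 and 1727. All 5 conjunctival keratins, *Krt17* holding most of the sum, came to 1684 and 2441 CPM, above the 203 and 831 of cluster 3 and under the 9736 and 13246 of cluster 5. The 5 markers of active limbal cells summed to 4653 CPM in UW and 3374 in W, below the 5654 and 4824 of cluster 3 and above the 2356 and 1983 of cluster 5. Among them *Atf3* was at 1902 CPM in UW against 1544 in cluster 3, and *Col17a1* at 792 against 1108. Mitotic genes were not low either, a UMI of *Mki67* or *Top2a* being found in 7.33% (5.21 to 9.96) of thinned UW cells and 24.9% (22.2 to 27.8) of W cells. The same share was 3.81% and 8.32% in cluster 3, 1.69% and 7.25% in cluster 5, 9.50% and 23.6% in cluster 11 and 2.46% and 3.75% in stromal cluster 0. In UW the name thus rested on high *Gpha2*, *Ifitm3* and *Cd63* with low *Krt12*. *Krt15* was found in 99.4% of thinned UW cells against 63.1% of cluster 3, but its level was higher in cluster 5. *Ifitm3* and *Cd63* were not private to cluster 9, with a UMI in 97.4% and 100% of thinned UW cells of stromal cluster 0. The mitotic genes *Mki67* and *Top2a* were found in more cells than in clusters 3 and 5 and in about as many as in cluster 11. Low *Krt19* set cluster 9 apart from cluster 5 but not from clusters 3, 8 and 11, with a UMI in 3.56% of its thinned UW cells, 2.99% of cluster 3, 3.53% of cluster 8 and 3.33% of cluster 11.

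Markers of other cell types were mostly scarce. The goblet cell mucins *Muc5ac* and *Muc5b*, the melanocyte genes *Mlana* and *Tyrp1*, the Schwann cell factor *Sox10* and the T cell gene *Cd3d* were at 0 in both libraries, which allows up to 3 UMIs of each. The 4-gene goblet list still summed to 10.4 CPM in UW, all of it *Agr2*, and to 57.7 in W from *Agr2* and *Spdef*, against 1.04 and 8.46 in cluster 3 and 39.2 and 91.3 in cluster 5. The 5 stromal genes summed to 380 CPM in UW and 311 in W, near the 311 and 350 of cluster 3 and far under the 74554 and 38724 of cluster 0. The 8 immune genes summed to 18.3 CPM in UW and 374 in W, below the 592 of cluster 3 in W, and nearly all of it came from *S100a8* and *S100a9*. The common leukocyte antigen *Ptprc* had 0 UMIs in UW and 19 in W.

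The 15 genes that led cluster 9 over the other epithelium in both libraries, of those at 100 CPM or more in each, were *Gpha2*, *Sox4*, *Wnt10a* and the following. *Apoe*, a lipid carrier, was at 2522 CPM in UW and 1459 in W, which was 5.11 and 2.69 log2 units above the other epithelium. *Igfbp2*, a binding protein of insulin-like growth factors, was at 508 and 844 CPM, and *Slc6a6*, the taurine transporter, at 2180 and 754. The growth factor *Ptn* was at 115 and 225 CPM, the secreted protease *Adamts1* at 124 and 212 and the actin-binding *Tpm1* at 142 and 185. *Bcam*, a laminin receptor, was at 197 and 176 CPM, the milk fat globule protein *Mfge8* at 199 and 131, the LIM protein *Csrp2* at 163 and 105 and the glutathione transferase *Gstm1* at 172 and 107. The paired membrane proteins *Tmem176a* and *Tmem176b* were at 398 and 404 CPM in UW and at 428 and 394 in W. Several of these are not private to epithelium, since stromal cluster 0 held 5713 CPM of *Apoe* and 19067 CPM of *Igfbp2* in UW.

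In its whole profile, cluster 9 lay nearest to clusters 11, 3 and 8. Pearson's r of log2 (CPM + 1) over 8223 genes in UW was 0.94 with cluster 11, 0.93 with cluster 3, 0.91 with cluster 8 and 0.83 with cluster 5. Over 9008 genes in W it was 0.97 with cluster 8, 0.96 with cluster 11, 0.94 with cluster 3 and 0.91 with cluster 5. Conjunctival-like cluster 5 thus came below these 3 and, in UW, below cluster 1 (0.86, and 0.91 in W), but above epithelial clusters 4, 2, 6 and 7, whose r was 0.81, 0.75, 0.67 and 0.59 in UW and 0.85, 0.81, 0.76 and 0.70 in W. The points are genes that share a library and its depth, and cluster 8 is the cluster in which 84.7% of UW and 72.7% of W cells had a UMI of the mitotic genes *Mki67* or *Top2a*.

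Among single cells of cluster 9, *Gpha2* went with *Apoe* and against *Krt12* in UW. Pearson's r over 505 UW cells was 0.47 for *Gpha2* with *Apoe*, 0.34 with the ligand gene *Kitl*, 0.33 with *Ifitm3* and -0.45 with *Krt12*. Over 950 W cells these were 0.37, 0.16, -0.04 and -0.18, all given as a description of cells of 1 library each. The 37 UW cells with no *Gpha2* UMI had 10632 CPM of *Krt12*, against 3999 in the 468 cells with one, and 1330 CPM of *Apoe* against 2740. In W the contrast was narrower, with 1513 CPM of *Krt12* in the 62 cells without and 1188 in the 888 cells with *Gpha2*. *Wfdc18* followed *Krt15*, with r of 0.23 in UW and 0.43 in W, while its r with *Gpha2* was 0.04 and -0.03. Split by a *Gpha2* UMI, however, *Wfdc18* stood at 67.5 CPM (57.4 to 78.9) in UW cells with one and 10.8 CPM (1.31 to 39.1) in those without, and at 797 (771 to 824) and 503 (427 to 589) in W. The UW contrast rested on few cells, since a *Wfdc18* UMI was found in 7.26% of the 468 cells with *Gpha2* and 5.41% of the 37 without, which held 2 UMIs in all. In W the shares were 37.5% and 20.97%.

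The comparison of W with UW asked what differed in these cells a day after the wound. Of 12370 genes with at least 20 counts, 1128 (9.12%) were at least 2-fold higher in W and 1207 (9.76%) at least 2-fold lower, and the median log2 ratio over all genes was -0.06. The higher genes numbered 611 without the cells with a UMI of *Ptprc*, *Tyrobp*, *S100a8* or *S100a9*, 623 when cells were thinned first and 748 with at least 100 counts, and the lower genes 681 with at least 100 counts and 4025 with at least 1. With all cells and at least 20 counts, the gene groups furthest above the median of all genes were antigen presentation, mitosis, S phase and interferon genes. Those furthest below it in this setting were the circadian clock, immediate early and Notch genes. At 100 CPM or more in either library, the 15 largest ratios included those of *S100a8*, *H2-Q7*, *Ifi27l2a* and *Wfdc18*, and the 15 smallest those of *Abi3bp*, *Fn1*, *Krt12* and *Neat1*.

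**Figure D3:**
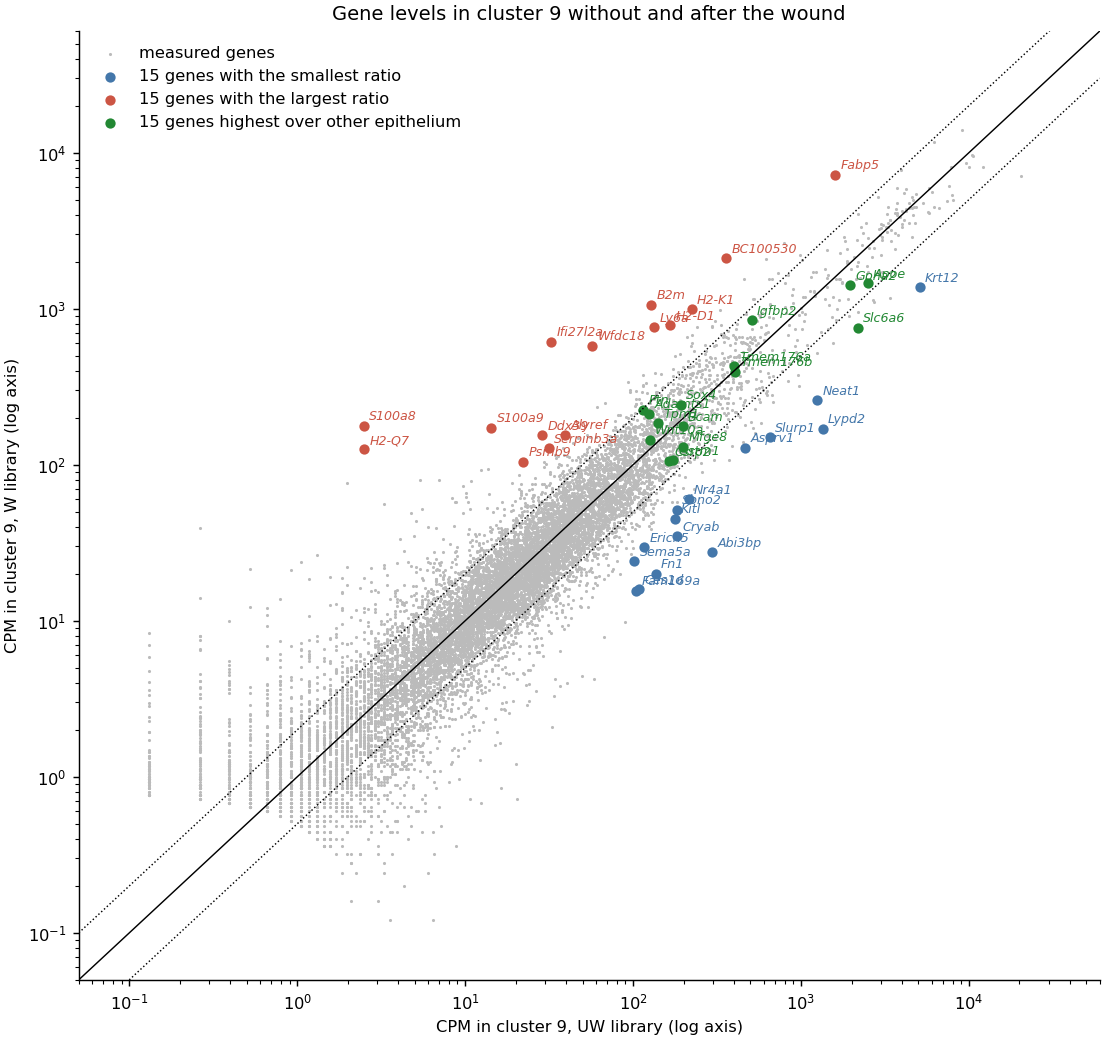
CPM in W against CPM in UW for the genes of cluster 9 (both axes log), with the dotted lines at 2-fold and named genes labelled. *Wfdc18*, *H2-Q7*, *B2m* and *Ifi27l2a* lie above the upper line, *Abi3bp*, *Fn1*, *Kitl* and *Krt12* below the lower, and *Gpha2* and *Sox4* between them.

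Antigen presentation genes were higher together. Of 22 measured genes of the list, 17 were past 2-fold higher in W and none lower, with a median log2 ratio of 2.20, and their summed level was 870 CPM in UW and 3856 in W. Cluster 3 was alike, with 18 of 22 past 2-fold higher and a median of 2.25, and cluster 5 had 12 of 22 and a median of 1.12. Over all genes, 1942 of 12845 were past 2-fold higher in cluster 3 and 1623 of 12830 in cluster 5. *B2m*, the light chain of class I molecules, had 128 CPM in UW (120 to 136) and 1062 CPM in W (1049 to 1075), and a UMI of it was found in 42.2% and 95.5% of thinned cells. The class I heavy chains *H2-D1* and *H2-K1* stood at 166 and 223 CPM in UW and at 784 and 992 in W. *H2-Q7* had 19 UMIs in UW (2.49 CPM) and 3118 in W (125 CPM), a log2 ratio of 5.65 (5.004 to 6.38), and a UMI in 1.19% and 41.7% of thinned cells. Reads of the *H2* genes can be split between close copies, so values of a single one are uncertain. *Psmb9* and *Psmb8*, subunits of the immunoproteasome that trims peptides for class I, were at 22.1 and 61.3 CPM in UW and 105 and 234 in W.

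Class II genes were a smaller part of this. The 7 measured class II genes summed to 17.1 CPM in UW and 60.1 in W, and 6 of them were past 2-fold higher. *H2-Ab1*, a class II chain, had 2 UMIs in UW and 346 in W (13.9 CPM), with 3.63 in cluster 3 and 7.80 in cluster 5 of W. A UMI of it was found in 7.47% of thinned W cells, against 4.35% of cluster 5, 3.66% of cluster 8, 2.54% of cluster 3 and 1.46% of cluster 0. For *Cd74*, the invariant chain of class II, the W shares were 8.95% in cluster 9 and 5.88%, 4.798%, 3.93% and 3.103% in these 4 clusters. The part of released RNA in these values was not tested. Without the cells with a UMI of *Ptprc*, *Tyrobp*, *S100a8* or *S100a9*, 18 genes of the whole presentation list were measured. Of these, 13 were past 2-fold higher, with a median log2 ratio of 2.18.

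Of 41 interferon-stimulated genes, 22 were past 2-fold higher in W and none lower, with a median log2 ratio of 1.11. The summed level went from 3363 CPM to 5976. *Ifi27l2a* had 32.6 CPM in UW (28.6 to 36.9) and 613 CPM in W (604 to 623) and was found in 11.7% and 80.4% of thinned cells. In W its share was 84.7% in cluster 3, 82.8% in stromal cluster 0 and 72.2% (69.5 to 74.8) in cluster 5, so it did not set cluster 9 apart from clusters 3 and 0. *Bst2*, a restriction factor that tethers viruses, was at 5.38 and 80.4 CPM. *Isg15*, a ubiquitin-like protein, was at 9.45 and 20.4 CPM, and *Irf7*, a transcription factor of the interferon response, at 8.67 and 20.5. Other members were within 2-fold, *Ifit1* being at 24.7 and 20.8 CPM and *Irf1* at 73.7 and 55.4. In cluster 3 the same list had a median log2 ratio of 2.90, and in cluster 5 of 1.01. Cluster 3 started lower, its *Ifitm3* being at 53.5 CPM in UW against 981 in cluster 9.

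The interferon-stimulated genes share a promoter motif, the interferon-stimulated response element, whose core GAAANNGAA was searched on both strands of the RefSeq windows (GRCm38.p6) that run from 250 bases before to 50 bases after each gene's start. Windows were found for 34 of the 43 listed genes, and 17 of them (50%) held the core, *Isg15*, *Ifit1*, *Bst2* and *Ifitm3* among them, against 9.76% of all 27025 genes with a window. Of 18 antigen presentation genes with a window 4 held it, of the 10 with a window among the 15 genes with the largest ratio of W over UW 1 did (*B2m*, 10%), and of the markers with a window *Gpha2* and *Dlk2* did. A match of letters is a description and not a bound site. The windows of the markers *Gpha2* and *Wfdc18* are printed with those of *Ifitm3* and *B2m*, 2 of the interferon-induced genes followed here, and capitals mark each match.
*Gpha2*, chr19:6226151-6226450, plus strand, 1 match: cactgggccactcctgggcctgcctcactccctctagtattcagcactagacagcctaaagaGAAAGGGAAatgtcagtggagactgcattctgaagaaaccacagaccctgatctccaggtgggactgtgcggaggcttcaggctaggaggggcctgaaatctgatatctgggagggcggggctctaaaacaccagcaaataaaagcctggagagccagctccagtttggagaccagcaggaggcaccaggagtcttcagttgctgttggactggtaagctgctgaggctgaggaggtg
*Ifitm3*, chr7:141010695-141010994, minus strand, 2 matches: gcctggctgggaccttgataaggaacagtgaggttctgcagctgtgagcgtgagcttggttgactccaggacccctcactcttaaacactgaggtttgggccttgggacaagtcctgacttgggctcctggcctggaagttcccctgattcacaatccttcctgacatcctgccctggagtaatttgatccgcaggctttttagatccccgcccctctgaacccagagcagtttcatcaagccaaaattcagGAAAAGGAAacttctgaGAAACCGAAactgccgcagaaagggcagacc
*B2m*, chr2:122147437-122147736, plus strand, 1 match: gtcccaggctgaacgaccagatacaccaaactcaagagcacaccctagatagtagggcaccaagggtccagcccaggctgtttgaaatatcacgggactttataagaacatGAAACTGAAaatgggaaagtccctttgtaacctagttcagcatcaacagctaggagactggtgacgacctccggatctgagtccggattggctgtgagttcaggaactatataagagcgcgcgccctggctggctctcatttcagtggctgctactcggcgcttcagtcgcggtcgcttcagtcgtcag
*Wfdc18*, chr11:83708754-83709053, plus strand, no match: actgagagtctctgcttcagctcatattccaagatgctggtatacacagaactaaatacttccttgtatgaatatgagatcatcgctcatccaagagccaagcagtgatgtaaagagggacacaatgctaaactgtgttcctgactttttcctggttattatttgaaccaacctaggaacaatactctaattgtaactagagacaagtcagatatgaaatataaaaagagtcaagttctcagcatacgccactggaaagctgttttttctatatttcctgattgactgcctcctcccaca

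Genes of division were higher in W, and those of S phase stood above clusters 3 and 5 already in UW. In UW the 25 S phase genes summed to 721 CPM, and in W to 1381, where the sums were 266 and 556 in cluster 3 and 173 and 301 in cluster 5. All 25 S phase genes had a ratio above 0 and 13 were past 2-fold, with a median log2 ratio of 1.14, and 26 of 30 genes of G2 and M phase were past 2-fold, with a median of 2.06. *Mcm3* and *Mcm5*, parts of the helicase that opens replication origins, were at 32.0 and 21.4 CPM in UW and 89.5 and 67.6 in W. A UMI of *Mcm3* was found in 11.3% (8.66 to 14.4) of thinned UW cells and 23.6% (20.9 to 26.4) of W cells, against 2.81% and 10.3% in cluster 3, but 39.8% and 46.8% in cluster 11 and 26.9% and 30.5% in cluster 8. *Birc5*, needed for the last step of mitosis, was at 10.8 CPM (8.56 to 13.4) and 78.2 (74.8 to 81.8), and the cyclin *Ccnb1* at 1.84 and 18.9. In clusters 3 and 5 the medians for G2 and M phase were 2.54 and 2.64. The share with a UMI of *Mki67* or *Top2a*, 7.33% and 24.9% when thinned, was 16.9% and 54.6% without thinning. When the 88 UW and 522 W cells with a UMI of either gene were left out, the S phase median was 0.54, and when cells with a UMI of *Ptprc*, *Tyrobp*, *S100a8* or *S100a9* were left out, which removed 784 of 956 W cells, it was -0.01. Thinning before that last step gave 0.56.

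Genes that hold the cycle back or open it in G1 did not move as a group. Of 25 such genes 5 were past 2-fold higher and 4 lower, beside 9.12% and 9.76% over all genes, with a median log2 ratio of -0.03. The inhibitors *Cdkn1c*, at 27.4 CPM in UW and 6.27 in W, and *Cdkn1a*, at 203 and 83.3, were lower in W, as were the cyclins *Ccnd2*, at 683 and 252, and *Ccnd1*, at 844 and 449. Other members went the other way, 12 of the 25 having a ratio above 0, with a largest log2 ratio of 1.70. Of the 32 measured genes of the quiescence signature, none was past 2-fold higher and 7 were past 2-fold lower. Over all genes the shares were 9.12% and 9.76%. The median of the signature was -0.49, and *Crim1*, which binds bone morphogenetic proteins, had the levels 530 and 159 CPM. Cluster 3 gave a median of -0.44 for this signature and cluster 5 of -0.26.

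**Figure D4:**
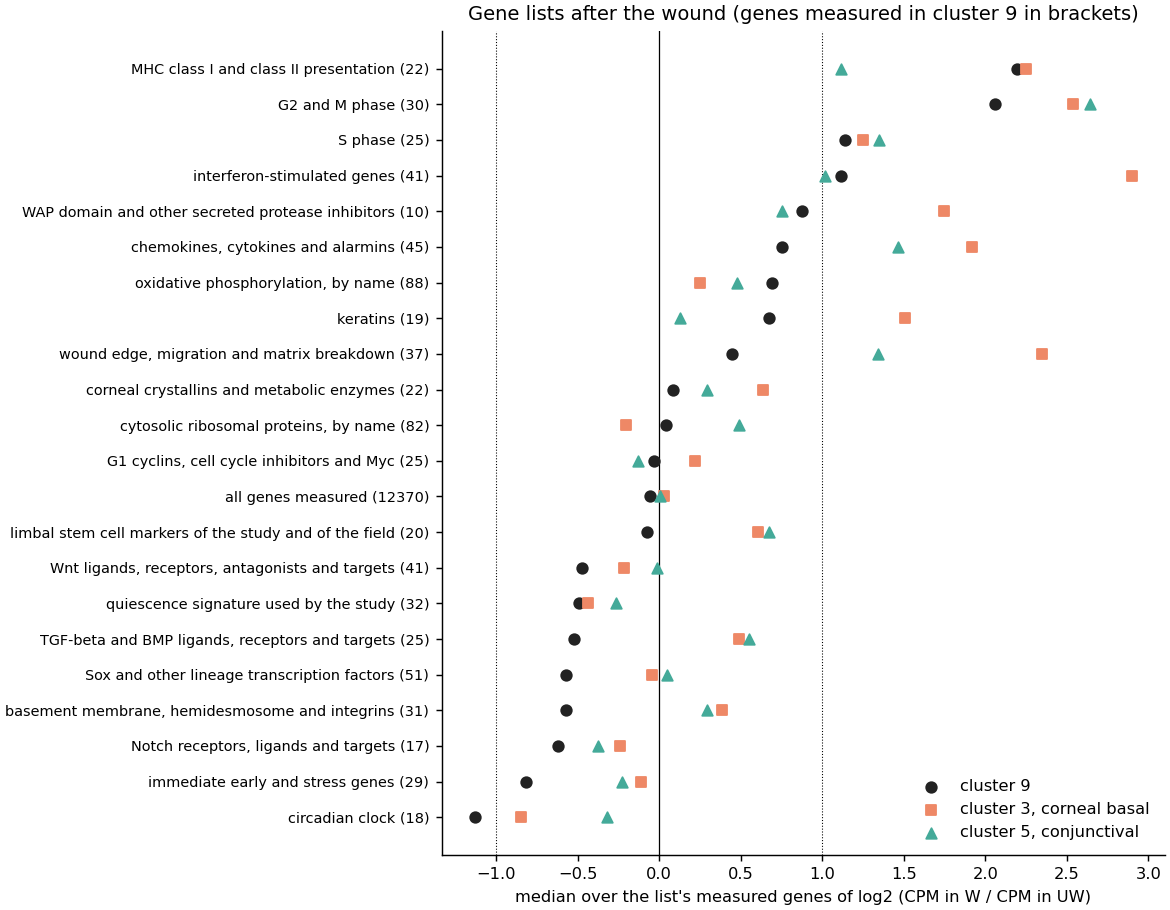
Median log2 ratio of W over UW for each gene list in clusters 9, 3 and 5, with dotted lines at 2-fold. In cluster 9 the lists of antigen presentation (2.20), G2 and M phase (2.06), S phase (1.14) and interferon (1.11) genes lie highest and the clock genes (-1.13) lowest; for wound edge genes cluster 9 (0.45) lies below cluster 3 (2.34).

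Wound edge genes had a lower median ratio in cluster 9 than in clusters 3 and 5. Of 37 measured genes 15 were past 2-fold higher and 3 lower, beside 9.12% and 9.76% over all genes. The median log2 ratio was 0.45, against 2.34 in cluster 3 and 1.34 in cluster 5. *Hmga2*, a chromatin protein of migrating epithelium, had no UMI in UW, which allows up to 3 counts, and 0.723 CPM in W, against 42.9 CPM in cluster 3 of W. The matrix metalloproteinases *Mmp10* and *Mmp13* were at 0.321 and 0.482 CPM in W, against 19.8 and 24.1 in cluster 3. *Krt6a*, a keratin of activated epithelium, had 210 and 663 CPM, where cluster 3 had 518 and 4074, and the growth factor *Areg* at 18.9 and 76.7 against 13.2 and 314. *Tnc*, the matrix protein tenascin C, was instead highest here of these clusters in W, with 18.4 CPM (1.18 in UW), where cluster 3 had 7.04 and cluster 5 had 2.41. *Fn1*, fibronectin, was at 136 CPM (128 to 145) in UW and 20.01 (18.3 to 21.8) in W.

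Of 45 chemokine and alarmin genes 21 were past 2-fold higher and 4 lower, beside 9.12% and 9.76% over all genes. Their median was 0.75, and several of them had like levels in clusters 9, 3 and 5 of W. *Mmp3* of the wound edge list stood at 76.3 CPM in cluster 9, 84.5 in cluster 3 and 71.9 in cluster 5 of W, with 4515 in stromal cluster 0. *Ccl2* stood at 21.2, 21.04 and 17.2 CPM, with 861 in cluster 0, and *Saa3* at 21.6, 25.2 and 21.6, with 3674 in cluster 0. *S100a8* was at 2.49 CPM in UW and 178 in W, the same 178 as in cluster 3, and was found in 28.3% of thinned W cells, against 28.6% of cluster 3, 17.1% of cluster 5, 39.8% of cluster 8, 42.4% of cluster 11 and 14.8% of cluster 0. The part of released RNA in these values was not tested. *Lcn2*, an iron-binding defence protein, was higher in cluster 9 than in both others, with 21.4 CPM in UW and 75.5 in W where cluster 3 had 0.0915 and 9.48 and cluster 5 had 2.34 and 27.6, although cluster 0 of W held 425. The adhesion molecule *Icam1* was at 121 and 65.6 CPM, which was 5.38 and 2.57 log2 units above the other epithelium.

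Secreted protease inhibitors and hormone partners gave further detail on the markers. Of 10 measured protease inhibitor genes 3 were past 2-fold higher and none lower, with a median log2 ratio of 0.87. Over all genes 9.12% were past 2-fold higher and 9.76% lower. Under TMM scaling 5 of the 10 were higher. Without the cells with a UMI of the 4 immune genes 4 were higher and 1 lower. *Wfdc2*, a relative of *Wfdc18*, was at 574 and 891 CPM, against 209 and 701 in cluster 3, and *Slpi*, the secretory leukocyte inhibitor, at 3.94 and 15.7. *Gphb5*, the beta subunit that pairs with *Gpha2* in thyrostimulin, had 9 UMIs in UW (1.18 CPM, 0.540 to 2.24) and 149 in W (5.99 CPM, 5.06 to 7.03). Cluster 3 held 0.443 CPM and cluster 5 held 2.21 CPM of *Gphb5* in W. The receptor gene *Tshr* had no UMI in cluster 9, which allows up to 3 counts in each library.

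Most Wnt and Notch genes were within 2-fold between the libraries, as were 10035 of all 12370 genes. Of 41 Wnt genes 8 were past 2-fold lower, 1 higher and 32 within, beside 9.76% lower and 9.12% higher over all genes. The median log2 ratio was -0.47, or -0.18 when cells were thinned and those with a UMI of the 4 immune genes left out. Among ligands, *Wnt4* was at 442 and 610 CPM and *Wnt6* at 35.3 and 20.4. Among antagonists, *Sfrp1* was at 366 and 196 CPM and *Dkk3* at 125 and 40.6. The receptor *Lgr6* had 30 UMIs in UW, 3.94 CPM (2.66 to 5.62), and 11 in W, 0.442 CPM (0.221 to 0.791), and no UMI in cluster 3 or 5 of UW. The target *Axin2* was at 14.3 and 16.5 CPM, counting intervals that overlap. Of 17 Notch genes 3 were past 2-fold lower (2 under TMM scaling) and none higher, beside 9.76% lower over all genes, with a median of -0.62, *Jag2* being at 128 and 75.3 CPM and *Notch1* at 221 and 124.

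Genes of the TGF-beta and BMP pathways stood, at the median, 2.06 log2 units above the other epithelium in UW and 0.87 in W. Of 25 measured genes 8 were past 2-fold lower in W, 1 higher and 16 within 2-fold, beside 9.76% lower and 9.12% higher over all genes. The median log2 ratio was -0.52, whereas the medians of clusters 3 and 5 were 0.49 and 0.55. *Bmp4*, a ligand, had 61 UMIs in UW, 8.01 CPM (6.13 to 10.3), and 23 in W, 0.924 CPM (0.586 to 1.39), and stood 7.76 and 2.63 log2 units above the other epithelium. The BMP targets *Id1* and *Id3* were at 2668 and 2118 CPM in UW and 1133 and 1551 in W. *Tgfbr3*, the co-receptor betaglycan, was at 97.8 and 26.6 CPM.

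Transcription factors of the list had a median of -0.57, but with 6 of 51 past 2-fold higher and 5 lower their counts were near the 9.12% and 9.76% of all genes, and TMM scaling left 2 lower. *Barx2*, a homeobox factor of ocular surface and glands, had 39.0 CPM in UW (34.7 to 43.7) and 115 CPM in W (111 to 119) and was found in 16.2% and 46.1% of thinned cells. That resembled cluster 5, at 52.6 and 119 CPM, more than cluster 3, at 0.305 and 20.3. *Creb5*, a partner of the AP-1 factors, was at 60.01 and 126 CPM, against 23.9 and 88.4 in cluster 3 and 11.95 and 58.2 in cluster 5. *Pitx1*, another homeobox factor, was at 1.84 and 12.1 CPM. *Trp63*, the regulator of stratified epithelia, was at 172 and 130 CPM and *Pax6*, the eye field factor, at 340 and 230.

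Basement membrane and hemidesmosome genes had 9 of 31 members past 2-fold lower and none higher, beside 9.76% and 9.12% over all genes. Their median log2 ratio was -0.57, against 0.39 in cluster 3 and 0.29 in cluster 5. *Fras1*, *Frem2*, *Nid1* and *Lamb1* were lower by 3.64, 2.45, 2.27 and 2.29 log2 units, from levels between 5.52 and 23.8 CPM in UW. *Lamb3*, a chain of the laminin that anchors hemidesmosomes, was at 84.7 and 93.3 CPM, against 26.7 and 205 in cluster 3, and *Itgb4* was at 174 and 147 against 134 and 351. *Col17a1* was at 792 and 543 CPM here and at 1108 and 1636 in cluster 3. The higher W levels of these anchoring genes in cluster 3 were thus not seen in cluster 9.

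Several abundant genes were far lower in W. *Abi3bp*, an extracellular matrix protein, had 295 CPM in UW (283 to 308) and 27.5 CPM in W (25.5 to 29.6), a log2 ratio of -3.42, and stood 3.47 log2 units above the other epithelium in UW. *Kitl*, the ligand of the Kit receptor on melanocytes and mast cells, was at 178 CPM (168 to 188) and 45.2 (42.6 to 47.9), 4.89 and 2.39 log2 units above the other epithelium, and was found in 46.7% and 18.2% of thinned cells. The semaphorin *Sema5a* was at 101.6 and 24.02 CPM. Corneal genes were lower too, *Lypd2* being at 1346 and 171 CPM, *Slurp1* at 649 and 150 and the crystallin *Aldh3a1* at 3376 and 1168. They were also lower in stromal cluster 0, which should not express them, with *Lypd2* at 648 and 156 CPM and *Krt12* at 1554 and 736, so part of the *Krt12*, *Lypd2* and *Slurp1* level in cluster 9 cannot be told apart from background. The nuclear RNA *Neat1* was at 1246 and 260 CPM. Fatty acid carrier *Fabp5* was on the other side, at 1597 and 7236 CPM, along with the protease inhibitor family gene *BC100530*, at 359 and 2110, and the surface protein *Ly6a*, at 133 and 764. *BC100530*, *Ly6a* and *Serpinb3a* belong to families of close copies and are uncertain for that reason.

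Many clock genes, and a smaller part of the immediate early genes, were past 2-fold lower in W. Of 18 clock genes 12 were past 2-fold lower and none higher, with a median log2 ratio of -1.13, against -0.85 in cluster 3 and -0.32 in cluster 5. Over all genes 9.76% were past 2-fold lower. The 12 clock genes became 9 under TMM scaling and 9 when cells were thinned. Without the cells with a UMI of the 4 immune genes 9 were lower and 1 higher, and 8 of 17 were lower when cells were thinned first. *Dbp* was at 231 and 69.8 CPM, *Per3* at 66.7 and 18.4, *Cry2* at 61.2 and 16.9 and *Nr1d1* at 302 and 107, whereas *Clock* was at 79.4 and 83.5 and *Arntl* at 4.86 and 7.11. The hour of the day at which each library was made is not given in the sources used here. Of 29 immediate early and stress genes 10 were past 2-fold lower and 1 higher, with a median of -0.82, against -0.11 and -0.23 in clusters 3 and 5. Without the cells with a UMI of *Ptprc*, *Tyrobp*, *S100a8* or *S100a9*, 5 were past 2-fold lower with a median of -0.49, and 4 with a median of -0.54 when cells were thinned first. *Fos* was at 2718 and 1108 CPM, *Egr1* at 629 and 280 and the nuclear receptor *Nr4a1* at 214 and 59.98. Tissue dissociation also raises immediate early genes, and per the study's methods cells with a dissociation signature and no other explaining marker were removed. The part of dissociation in these values was not tested.

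Keratins and metabolic enzymes had members past 2-fold in both directions, while oxidative phosphorylation genes were mostly somewhat higher in W. Of 19 keratins 6 were past 2-fold higher and 2 lower, with a median of 0.67. Over all genes 9.12% were past 2-fold higher and 9.76% lower, so the 2 lower keratins were near that share. *Krt17*, a keratin of basal and stressed epithelium, was at 1388 and 1787 CPM and found in 71.7% and 96.0% of thinned cells, and *Krt4* was at 136 and 285 CPM and found in 32.1% and 59.6%, against 19.4% of cluster 0 in W. Of 22 crystallins and metabolic enzymes 6 were past 2-fold higher and 4 lower, with a median of 0.09. The glutathione peroxidase *Gpx2* was at 4.73 and 48.9 CPM, against 0.488 and 5.14 in cluster 3. Of 88 oxidative phosphorylation genes 83 had a ratio above 0, against 5762 of all 12370 genes, and 15 were past 2-fold higher and 1 lower. Their median was 0.69, against 0.25 in cluster 3 and 0.48 in cluster 5. Cytosolic ribosomal protein genes had a median of 0.04, with 1 of 82 past 2-fold higher and none lower.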

How the data were processed

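A UW and a W single-cell library of mouse cornea were compared. The authors deposited UMI counts per gene and cell without normalization, made with Cell Ranger 3.1.0 per the labels, and a table of cells with Seurat cluster numbers. The labels name the v3 kit and build mm9, the methods the V2 kit and mm10, so no coordinates of the files were used. The authors removed doublets, and cells marked mainly by dissociation-induced genes, and filtered cells before deposit, and 3 UW and 7 W cells of cluster 9 carry a doublet call in an earlier column.

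Counts of cluster 9 cells were summed per library in Python 3.11.15 (numpy 2.4.6, scipy 1.17.1, pandas 2.3.3). Genes needed 20 counts over both libraries, and a sum of 0 was set to 3 counts. Cells were thinned to 5000 UMIs for shares. Totals were also scaled in R 4.3.3 by edgeR 4.0.16 (TMM) and DESeq2 1.42.0 (size factors only). The counting was tested on simulated data. Named genes were the 5 markers, the 15 genes leading cluster 9 over other epithelium, the 15 largest and 15 smallest ratios at 100 CPM or more, and members of the 22 gene lists. The cluster, its markers and the lists were chosen with earlier results of these data known. Gene positions are from GENCODE M21 (GRCm38), where 19908 of 20198 genes were found by symbol.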

Additional observations from a re-analysis of the deposited data

Results flagged for a closer look

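Flagged results are genes that led cluster 9 and whose level differed between W and UW in opposite directions in cluster 9 and in another cluster, by 2 log2 units or more. With 1 library per condition none of these differences was tested. *Gpha2* was lower in W in cluster 9, from 1946 to 1412 CPM (log2 ratio -0.46, -0.49 to -0.43), and higher in stromal cluster 0, from 821 to 4206 CPM (2.36, 2.34 to 2.38). In cluster 10 *Gpha2* was also higher in W, from 234 to 2611 CPM (3.48, 3.40 to 3.56). *Apoe* was lower in cluster 9, from 2522 to 1459 CPM (-0.79), and higher in cluster 5, from 183 to 477 CPM (1.38). *Csrp2* was lower in cluster 9, from 163 to 105 CPM (-0.64), and higher in cluster 3, from 4.55 to 20.8 CPM (2.19).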

How the results depend on the processing

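No paired analysis was possible because each condition is 1 library, and for the same reason no replicate could be left out. Share of epithelial cells: with 1000 genes or more per cell and no more than 5% mitochondrial UMIs, cluster 9 was 3.097% of UW. Without cells with a UMI of *Ptprc*, *Tyrobp*, *S100a8* or *S100a9* it was 18.0% of W, and without cells with one of *Mki67* or *Top2a* it was 8.75%. Genes past 2-fold higher in W numbered 611 without the 4-immune-gene cells, 623 when cells were thinned first (an alternative chosen after seeing the data) and 748 with at least 100 counts. Genes past 2-fold lower numbered 681 with at least 100 counts and 4025 with at least 1 count, where a sum of 0 was set to 0.394 CPM in UW and 0.121 in W, so that genes with no UMI in UW and few in W were given a ratio below 0 by construction. The immediate early median was -0.49 without the immune-gene cells and -0.54 when thinned first. The S phase median was -0.011 without these cells, 0.56 when thinned first and 0.54 without *Mki67* or *Top2a* cells. Thinned and without immune-gene cells, *S100a8* and *S100a9* had no UMI by construction (log2 ratio -0.0089 each). The share of cells with a UMI of *Mki67* or *Top2a* was 16.9% in UW and 54.6% in W without thinning. Leaving out only the 3 UW and 66 W cells with a UMI of *Ptprc* or *Tyrobp* (chosen after seeing the data) gave 1087 higher and 1190 lower genes. TMM scaling moved the median of all genes to 0.08 and DESeq2's to 0.07. Of 104 alternatives for the 8 lists with a median of at least 0.8 in size, 1 turned the sign, and of 341 for the 31 named genes with a log2 ratio of at least 1 in size, 2 did, all given above. Sizes were less stable than signs: 223 log2 ratios of W over UW and 54 marker levels moved beyond their counting interval, while 281 and 46 did not. Depth limits UW more than W, with 7615535 against 24893580 UMIs.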
